A study of Danio rerio with 12 samples.

Results

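The comparison set as3mt mutant zebrafish larvae against wild-type larvae when both were kept in inorganic arsenic (iAs), with 3 RNA-seq libraries of each, 6 of the 12 libraries of the series. The members were taken by sample title, and all expressed genes were tested. The other 6 libraries came from the same genotypes without iAs and were used to separate differences that were already there from those seen with iAs alone. Each library was made from a pool of 10 whole larvae collected at about 119 hours post-fertilization. Wild-type larvae were of the TAB14 strain. Mutant larvae came from crosses between F2 fish homozygous for a CRISPR knockout of as3mt, in which a deletion of 8 bp in exon 3 leads to a premature stop, on the ABNYU strain background. Genotype and strain therefore cannot be told apart in any comparison between them, with or without iAs. The treated groups were in 1 mM iAs from 6 hours post-fertilization, with 20 embryos in each 10 mL well, and the untreated groups were at 0 mM. The labels do not say that the libraries of a group came from separate clutches.

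The as3mt gene codes for arsenite methyltransferase, which uses S-adenosylmethionine to methylate inorganic arsenic, chiefly in the liver. Methylated arsenic leaves the body in urine more readily than the inorganic form, and the methylated species differ in toxicity. Arsenite binds thiol groups of proteins and is known to induce metallothioneins, heat shock proteins and the oxidant defence genes controlled by the transcription factor Nrf2.

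The 6 treated libraries held 32934791 to 43759270 counts, within the 28909467 to 43759270 of all 12. Mitochondrial transcripts took 4.06 to 4.60% of the counts in the 12 libraries. On the first principal component of the 6 treated libraries, which took 80.2% of the variance, the wild-type libraries sat at -40.1, -37.1 and -36.6 and the mutant libraries at 44.7, 33.2 and 35.9. Replicate 1 of the treated mutant stood apart from replicates 2 and 3 in immediate-early and heat shock transcripts, and values are given without it where it decides them. In the targeted gene (AS3MT in the name table used), the treated wild type held 9.77, 9.73 and 9.93 CPM (counts scaled to a common library size, with TMM factors) and the treated mutant 3.02, 3.31 and 3.51 CPM, 2.99-fold lower (log2 fold change -1.58, SE 0.11, adjusted p = 3.2e-09, n = 3 per group). The untreated libraries stood at 14.3, 16.8 and 17.2 CPM in wild type and 9.21, 9.91 and 9.52 CPM in the mutant, 1.68-fold lower. The lower transcript level was thus already present without iAs and was wider with it (interaction -0.83, adjusted p = 3.7e-04). Whole-gene counts do not show whether protein was made.

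Under iAs the mutant larvae held more transcripts of inflammation, hypoxia and p53 genes than wild type, and fewer of gut, pancreas, bile, eye, nerve and cell division genes. Differences were called in fewer genes without iAs. Of 23096 genes tested, 11641 were called under iAs (50.4%), of which 5208 were higher in the mutant (22.5%) and 6433 lower (27.9%), with edgeR's quasi-likelihood test at an adjusted p below 0.05. Of these, 2805 differed by 2-fold or more (12.1% of the genes tested), 1227 higher (5.31%) and 1578 lower (6.83%). Without iAs, 3110 genes were called (13.5%), 1534 higher (6.64%) and 1576 lower (6.82%), and 794 differed by 2-fold or more (3.44%). The interaction, which tests whether the genotype difference itself changed with iAs, was called for 6984 genes (30.2%), 2842 upward (12.3%) and 4142 downward (17.9%). The median log2 difference over all genes was -0.04 under iAs, 7.5e-04 without it and -0.05 for the interaction. The excess of lower genes under iAs depended on the fit. With the 6 treated libraries alone 5467 genes were higher and 5416 lower, and with library size alone 4446 and 7215. Without replicate 1 of the treated mutant, 4502 genes were higher and 5723 lower under iAs. Without replicate 2 of the untreated mutant, the genes higher without iAs numbered 1022.

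The genes called under iAs were sorted by what the untreated larvae showed. A difference was iAs-dependent where it was not called without iAs and the interaction was called in its direction, and 5444 genes were of this kind, 2199 higher and 3245 lower (46.8% of the calls). It was standing where it was called the same way without iAs and the interaction was not called, which held for 1390 genes (11.9%), 706 higher and 684 lower. It was widened or narrowed where both were called the same way and the interaction made it larger (393 genes, 3.38%) or smaller (62 genes, 0.533%). It had turned where the mutant was called the opposite way without iAs (301 genes, 2.59%). The other 4051 genes (34.8%) could not be assigned, since neither the untreated difference nor the interaction was called. The median size of the log2 difference was 0.63 under iAs and 0.10 without it in iAs-dependent genes, 0.69 and 0.63 in standing genes, and 1.14 and 0.40 in widened genes, sizes that the sorting itself largely fixes. Of the 2805 genes at 2-fold or more, 762 (27.2%) were called in the same direction without iAs and 1991 (71.0%) were not called there. Some class counts rested on single libraries. The widened genes numbered 231, 221 and 251 without replicates 1, 2 and 3 of the untreated wild type and 226 without replicate 2 of the untreated mutant. The turned genes numbered 196 and 189 without replicates 1 and 2 of the untreated wild type and 190 without replicate 2 of the untreated mutant, and the narrowed genes numbered 39 without replicate 2 of the treated wild type.

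**Figure D1:**
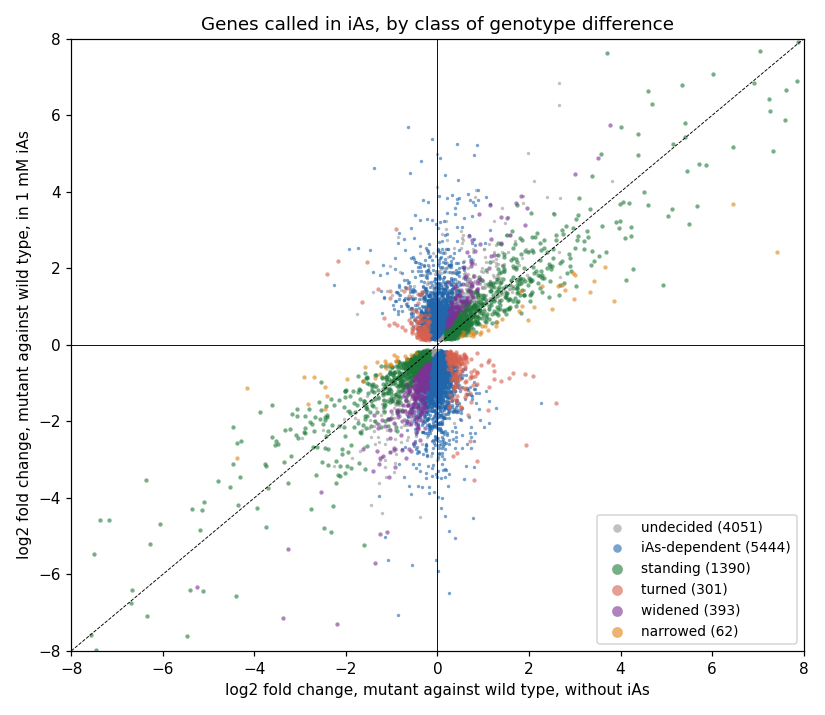
Each point is 1 of the 11641 genes called under iAs, with the log2 fold change of mutant against wild type without iAs on the x axis and in 1 mM iAs on the y axis, coloured by class. iAs-dependent genes (5444) lie along the vertical axis, standing genes (1390) along the dashed line of equal difference, and turned genes (301) in the upper left and lower right quadrants. A further 32 genes lie beyond the axis limits of 8.

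Read from the untreated side, 2146 of the 3110 genes called without iAs were also called with it (69.0% of the untreated calls and 18.4% of the calls under iAs), 1845 in the same direction and 301 in the opposite one. The pair of comparisons shared no library. Over the 23096 genes the log2 differences with and without iAs had a Pearson r of 0.60, and over the 14232 genes with at least 5 CPM it was 0.45, given as a description since genes are not independent replicates.

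The metallothionein MT1X and 21 of 40 members of the integrated stress response list were higher in the treated mutant, whereas 21 of 38 Nrf2 targets and 28 of 40 proteasome genes were lower. Counts of list members, here and below, stand against 22.5% higher and 27.9% lower over all genes under iAs. Without iAs these shares were 6.64% and 6.82%. Metallothionein MT1X (mt2), a metal-binding protein, held 1975, 1637 and 1734 CPM in the treated wild type and 3949, 3349 and 3686 CPM in the treated mutant. The groups did not overlap and the mutant was 2.06-fold higher (log2 fold change 1.04, SE 0.09, adjusted p = 3.9e-08), while without iAs the levels were 68.4 ± 1.27 CPM in wild type and 59.8 ± 8.27 CPM in the mutant (SD, n = 3). Haem oxygenase HMOX1, which degrades haem, stood at 16.5, 19.6 and 19.6 CPM in wild type and 42.2, 38.6 and 41.6 CPM in the mutant under iAs, 2.2-fold higher (log2 fold change 1.14, SE 0.12, adjusted p = 6.6e-07). GCLM, the modifier subunit of glutamate-cysteine ligase in glutathione synthesis, held 82.7, 73.8 and 85.1 CPM in wild type and 75.0, 70.6 and 73.3 CPM in the mutant. It was not called under iAs (log2 fold change -0.14, SE 0.06, adjusted p = 0.0666), but it was called lower with library size alone (adjusted p = 0.0125) and without replicate 2 of the treated wild type (adjusted p = 0.0142). With iAs it rose 4.53-fold over untreated wild type, and the mutant rose 3.98-fold.

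Of the Nrf2 and glutathione list, 8 of 38 members were higher in the treated mutant and 21 lower, against 22.5% and 27.9% of all genes, with a median log2 difference of -0.22 beside -0.04 over all genes. HMOX1 was the member furthest above wild type. Transketolase TKT, an enzyme of the pentose phosphate pathway that supplies NADPH, was lower at 58.1, 50.9 and 55.2 CPM against 132, 122 and 119.7 CPM in wild type (2.27-fold, log2 fold change -1.19, SE 0.07, adjusted p = 1.0e-09). The glutathione transferase gsta.1 rose with iAs in wild type, from 116 ± 3.12 to 177 ± 7.35 CPM, and fell in the mutant, from 119.9 ± 12.3 to 81.8 ± 9.38 CPM (SD, n = 3), so that the mutant was 2.17-fold lower under iAs. Proteasome genes, which code for the protease that degrades ubiquitinated proteins, were lower in 28 of 40 members and higher in 1, with a median of -0.23. Without iAs 2 were lower and 0 higher. The differences were small, and the lid subunit PSMD12 stood at 131, 146 and 147 CPM in wild type and 94.5, 99.5 and 111 CPM in the mutant (1.39-fold lower). PSMD12 showed a standing difference, already 1.175-fold lower without iAs (adjusted p = 0.0261), with no call for the interaction (adjusted p = 0.0541). The assembly chaperone PSMG2 was lower at 13.9 ± 0.868 against 21.2 ± 2.21 CPM (1.52-fold), and its partner PSMG1 was the exception, 1.68-fold higher in the mutant.

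The cytosolic heat shock list split, with 9 of 36 members higher and 11 lower (median 0.07), shares near those of all genes (22.5% and 27.9%). The members named here by the size of their difference were higher in the mutant. The inducible chaperone gene hsp70l held 84.2, 38.7 and 50.1 CPM in the treated wild type and 1493, 296 and 388 CPM in the treated mutant, the highest value being in replicate 1. The mutant was 12.6-fold higher (log2 fold change 3.66, SE 0.44, adjusted p = 2.7e-06), or 5.96-fold higher without that replicate. The genotype difference of hsp70l was 0.81 on the log2 scale without iAs and was not called (adjusted p = 0.523). The interaction (2.85, adjusted p = 0.0199) was lost without replicate 2 (adjusted p = 0.0530) or replicate 3 (adjusted p = 0.0512) of the untreated wild type. Its relative hsp70.1 stood at 15.3, 6.57 and 8.44 CPM in wild type and 127, 28.5 and 35.4 CPM in the mutant, 6.39-fold higher and 3.19-fold without replicate 1 of the mutant. The interaction of hsp70.1 was not called (adjusted p = 0.259). The hsp70 genes are near-copies, so the split of reads among them is uncertain. The co-chaperone dnajb1b was 4.86-fold higher, at 16.6, 14.0 and 14.7 CPM in wild type and 119, 46.4 and 54.4 CPM in the mutant.

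In the integrated stress response, in which phosphorylation of eIF2 alpha slows translation and raises the factors ATF4 and ATF3, 21 of 40 members were higher and 8 lower (median 0.19). Without replicate 2 of the treated mutant 5 were lower. Part of this preceded iAs, since 10 were higher and 2 lower in the untreated mutant (median 0.15). Of the differences under iAs, 6 were standing and 14 iAs-dependent. The transcription factor ATF3 held 46.2, 41.3 and 53.7 CPM in wild type and 365, 179.5 and 219.9 CPM in the mutant under iAs, 5.42-fold higher (log2 fold change 2.44, SE 0.19, adjusted p = 1.2e-08), after 8.12 ± 1.69 and 8.45 ± 0.331 CPM without iAs (SD, n = 3). The phosphatase subunit ppp1r15a, which reverses eIF2 alpha phosphorylation, stood at 57.9, 55.1 and 70.6 CPM in wild type and 248, 188 and 185 CPM in the mutant (3.38-fold), and the transcription factor CEBPB was 4.41-fold higher. The endoplasmic reticulum's unfolded protein response went mostly the other way, with 4 of 30 members higher and 13 lower (median -0.19). With the 6 treated libraries alone 7 were higher. The chaperone CALR was 1.71-fold lower, at 39.5 ± 1.24 against 67.5 ± 3.54 CPM (SD, n = 3), and was already 1.22-fold lower without iAs. The thiol oxidase ERO1A was 3.33-fold higher, at 38.5, 33.1 and 29.4 against 8.93, 10.4 and 10.9 CPM, and the chaperone HSPA5 1.80-fold higher.

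Immediate-early and inflammatory transcripts gave the most one-sided upward list. In acute inflammation and AP-1, 34 of 40 members were higher in the treated mutant and 1 lower, with a median of 1.22, where 2 were higher and 1 lower without iAs. Without replicate 1 of the treated mutant 29 were higher, and without replicate 1 of the treated wild type 2 were lower. The AP-1 subunit FOS held 4.18, 3.05 and 3.41 CPM in wild type and 108, 13.9 and 26.8 CPM in the mutant under iAs. It was 14.2-fold higher (log2 fold change 3.82, SE 0.62, adjusted p = 6.0e-05), or 5.76-fold without replicate 1 of the mutant, and the wild-type levels under iAs lay within the untreated range of 2.59, 4.51 and 7.48 CPM. FOSB stood at 0.391, 0.406 and 0.343 CPM in wild type and 19.8, 0.963 and 1.72 CPM in the mutant, 19.8-fold higher, and 3.5-fold without that replicate. Its untreated levels were 1.215 ± 0.127 CPM in wild type and 1.68 ± 0.535 CPM in the mutant (SD, n = 3). Treated wild type thus lay 3.19-fold below untreated wild type, a fall not called by the test (adjusted p = 0.181). Of the treated mutant libraries, only replicate 1 held more FOSB than every untreated mutant library. FOSL1, another AP-1 subunit, went from 27.9, 17.7 and 32.1 CPM to 344, 84.2 and 149 CPM between the genotypes, 7.44-fold and 4.51-fold without it. The AP-1 repressor JDP2 (ENSDARG00000020133) was 6.43-fold higher (2.98-fold without that replicate). The neutrophil chemokine cxcl8a was 9.39-fold higher (5.25-fold without that replicate), with no call for its interaction (adjusted p = 0.163). In each of these genes replicate 1 of the mutant was the highest of the 3, and the remaining mutant libraries still lay above every wild-type library in iAs. FOS, FOSL1 and JDP2 met a naming rule that required no overlap in iAs, so their separation follows from the choice and is no support.

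Macrophage and neutrophil markers were higher in 19 of 34 members and lower in 4, with a median of 0.72, while without iAs 1 was higher and 0 lower. The summed level of the list did not follow, at 810.2 to 930.5 CPM in the treated wild type and 802 to 875 CPM in the treated mutant. Counts from whole larvae cannot tell a change in the number of cells from a change in RNA per cell, here and in every tissue list. MFAP4 (ENSDARG00000088745), a macrophage marker in zebrafish, held 0.481, 0.587 and 0.755 CPM in wild type and 5.02, 6.29 and 4.38 CPM in the mutant, 8.47-fold higher (log2 fold change 3.08, SE 0.27, adjusted p = 5.3e-08). The table gives MFAP4 to several genes, and reads may be shared among them. The phagocyte NADPH oxidase subunit cybb stood at 2.17, 2.75 and 2.49 CPM in wild type and 11.1, 8.81 and 10.9 CPM in the mutant, 4.13-fold higher. The collagenase mmp13a was 5.99-fold higher, and 3.25-fold without replicate 1 of the mutant. Of the interferon list 6 of 19 members were higher and 1 lower, against 22.5% and 27.9% of all genes. Its median of 0.25 changed sign in 1 alternative, and the lower members numbered 2, 0 and 3 without replicate 1 or 3 of the treated wild type or replicate 3 of the treated mutant. IRF7, a transcription factor of the interferon response, was 2.16-fold higher at 11.1, 6.14 and 8.27 CPM against 4.66, 3.64 and 3.57 CPM. The antiviral kinase gene eif2ak2 showed a standing difference, 3.32-fold higher in the mutant under iAs and 2.68-fold without.

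The p53 and DNA damage list was higher in 24 of 34 members and lower in 4, with a median of 0.63. The growth arrest gene GADD45B (ENSDARG00000027744) held 37.0, 33.2 and 47.2 CPM in wild type and 182, 116 and 128 CPM in the mutant under iAs, 3.62-fold higher (log2 fold change 1.86, SE 0.20, adjusted p = 8.1e-07). Its relative GADD45G (ENSDARG00000019417) was 2.55-fold higher, with levels of 23.3 ± 1.99 and 59.5 ± 7.5 CPM (SD, n = 3). The antiproliferative gene BTG2 was 2.72-fold higher, and 1.73-fold without replicate 1 of the mutant, with no call for its interaction (adjusted p = 0.240).

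Hypoxia-inducible targets, the genes switched on by HIF in low oxygen, were higher in 31 of 47 members and lower in 4 (median 0.34), against 1 higher and 2 lower without iAs. The members named here by size were higher, while the lowest member of the list stood at a log2 difference of -2.04. The vasodilator peptide gene ADM (ENSDARG00000069027) stood at 8.03, 15.1 and 7.46 CPM in the treated wild type and 51.6, 64.7 and 56.9 CPM in the treated mutant, 5.64-fold higher (log2 fold change 2.5, SE 0.19, adjusted p = 8.4e-09). ANKRD37 was 4.67-fold higher, at 20.7, 33.0 and 23.7 CPM against 6.07, 5.55 and 4.99 CPM. NDRG1 (ENSDARG00000010420) held 71.5, 29.1 and 36.8 CPM in the mutant and 6.55, 9.89 and 10.6 CPM in wild type, 5.04-fold higher. The leptin gene lepb, an adipokine and in fish a responder to hypoxia, held 6.32, 2.75 and 5.67 CPM in wild type and 40.7, 14.3 and 23.1 CPM in the mutant under iAs, 5.34-fold higher (log2 fold change 2.42, SE 0.31, adjusted p = 5.3e-06). Without iAs it had 2 counts over the 3 wild-type libraries and 7 over the 3 mutant libraries, a ratio of 3.25 with an exact 95% counting interval from 0.618 to 32.0, so its untreated difference was not measurable at this depth.

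Gluconeogenesis and glucocorticoid targets were higher in 23 of 42 members and lower in 6 (median 0.36). POMC, the precursor of the pituitary hormone ACTH, held 1.44, 0.926 and 1.3 CPM in wild type and 4.88, 5.92 and 6.42 CPM in the mutant, 4.71-fold higher (log2 fold change 2.24, SE 0.21, adjusted p = 1.7e-07). The IGF-binding protein IGFBP1 was 2.17-fold higher, a standing difference that was 1.49-fold without iAs, and igfbp1b was 2.48-fold higher. Another neuropeptide precursor, CARTPT (ENSDARG00000035852), was among the largest iAs-dependent rises. It held 1.14, 1.83 and 1.51 CPM in wild type and 21.7, 19.4 and 19.3 CPM in the mutant under iAs, 13.3-fold higher (log2 fold change 3.73, SE 0.20, adjusted p = 2.0e-10), with 1.21 ± 0.310 and 1.04 ± 0.435 CPM without iAs (SD, n = 3). Its level in treated wild type did not differ from the untreated level by the test (log2 fold change 0.35, adjusted p = 0.282).

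**Figure D2:**
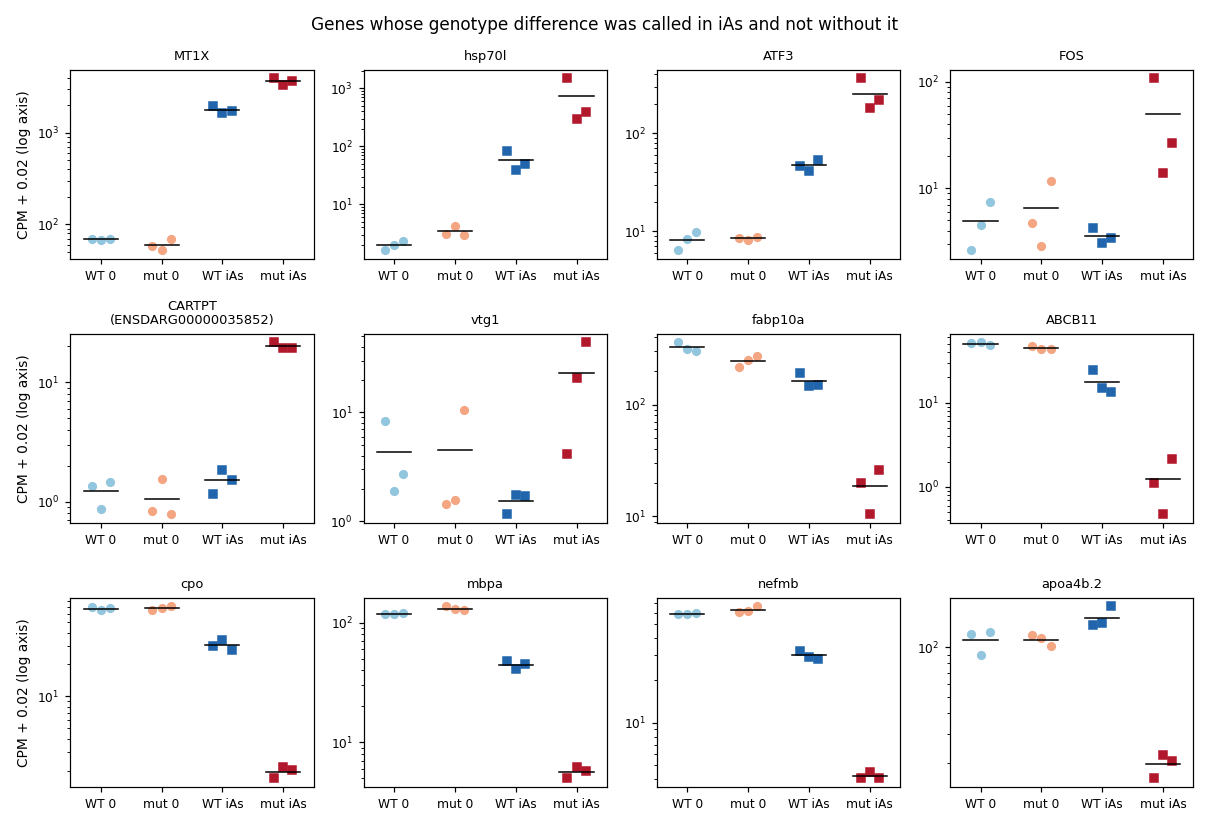
Levels of 12 genes whose genotype difference was called in iAs and not without it, in CPM plus 0.02 on a log axis. Each marker is 1 library, circles without iAs and squares in 1 mM iAs, for wild type (WT) and mutant (mut), and bars are group means of 3. In all 12 panels the treated mutant lies apart from the treated wild type, with MT1X, hsp70l, ATF3, FOS, CARTPT and vtg1 above it and fabp10a, ABCB11, cpo, mbpa, nefmb and apoa4b.2 below it. Apart from MT1X and ATF3, these genes met a naming rule that required no overlap in iAs.

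Other iAs-dependent rises named by size were the vitellogenin gene vtg1, plekhs1.1 and fbxl3l. vtg1, a yolk protein precursor, stood at 1.14, 1.74 and 1.69 CPM in the treated wild type and 4.15, 20.7 and 44.1 CPM in the treated mutant, 14.8-fold higher (log2 fold change 3.88, SE 0.79, adjusted p = 5.3e-04). Its mutant libraries were widely spread, the value was 8.01-fold without replicate 3, and the interaction was lost without replicate 1 of the untreated wild type (adjusted p = 0.0795). It has near-copies among the vitellogenin genes. plekhs1.1, a pleckstrin homology domain gene, held 0.241, 0.406 and 1.65 CPM in wild type and 11, 8.72 and 8.68 CPM in the mutant, 11.9-fold higher, and 28.2-fold without replicate 3 of the wild type. The F-box gene fbxl3l was 6.58-fold higher, at 12.4, 7.62 and 6.83 CPM against 1.11, 1.67 and 1.26 CPM.

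Exocrine pancreas and enterocyte genes had the lowest medians of the 33 lists. Enterocyte genes, those of the absorptive cells of the gut, were lower in 40 of 52 members and higher in 2, with a median of -0.97. Without iAs the median was 0.00, with 4 members higher and 6 lower. Their summed level was 3036 to 3456 CPM in the treated wild type and 1869 to 1980 CPM in the treated mutant. The brush-border carboxypeptidase cpo held 29.6, 33.9 and 27.3 CPM in wild type and 1.67, 2.12 and 2.00 CPM in the mutant under iAs. It was 15.7-fold lower (log2 fold change -3.97, SE 0.11, adjusted p = 5.8e-14), and the untreated groups, at 69.9, 64.7 and 67.6 and 65.9, 68.0 and 70.8 CPM, overlapped. The lipid transport protein apoa4b.2 was 7.68-fold lower, with 136, 139.8 and 177 CPM in wild type and 16.2, 22.3 and 20.5 CPM in the mutant. It had risen 1.36-fold with iAs in wild type (adjusted p = 0.00695) and fallen 5.67-fold in the mutant (adjusted p = 3.1e-11). apoa4b.3 was 12.8-fold lower at 0.485, 0.510 and 0.626 CPM against 5.11, 6.21 and 9.36 CPM. The chitinase chia.3 was already 5.83-fold lower without iAs and 14.5-fold lower with it. Its interaction (-1.31, adjusted p = 0.0160) was lost without replicate 3 of the treated mutant (adjusted p = 0.0566). Among iAs-dependent genes named by size, malrd1, known in mouse as an intestinal regulator of bile acids, was 7.41-fold lower, at 2.27, 2.12 and 3.35 CPM against 22.2, 18.1 and 16.8 CPM. The zonadhesin-like gene zanl was 7.14-fold lower, at 14.9, 14.8 and 15.3 CPM against 126, 97.4 and 97.9 CPM.

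Bile acid genes were lower in 20 of 28 members and higher in 1 (median -0.56), against 3 lower without iAs. The bile salt export pump ABCB11 held 24.5, 14.9 and 13.4 CPM in the treated wild type and 1.08, 0.453 and 2.1 CPM in the treated mutant. It was 14.7-fold lower (log2 fold change -3.88, SE 0.28, adjusted p = 6.2e-09), or 22.5-fold without replicate 3 of the mutant. The nuclear receptor nr5a5 was 8.61-fold lower, at 0.297, 0.198 and 0.439 CPM against 3.49, 2.28 and 2.33 CPM, and the ileal bile acid binding protein FABP6 was 2.79-fold lower. Hepatocyte genes split, with 24 of 52 lower and 16 higher (median -0.19). The largest differences were downward, and the largest upward log2 difference was 2.18. The summed level of the list overlapped under iAs, at 11770 to 12305 CPM in wild type and 10582 to 11809 CPM in the mutant. The members named here were all lower, so they do not stand for the list. The liver fatty acid binding protein fabp10a stood at 190, 146 and 148 CPM in wild type and 19.7, 10.4 and 25.8 CPM in the mutant, 8.66-fold lower (log2 fold change -3.12, SE 0.21, adjusted p = 1.9e-09), with no call without iAs (adjusted p = 0.165), where the groups did not overlap at 360.5, 315 and 304 and 217, 249 and 274 CPM. GC, the vitamin D binding protein of plasma, was 4.95-fold lower, at 6.39, 5.04 and 6.51 CPM against 40.6, 24.6 and 24.1 CPM. The fetuin gene ahsg2 was 30.8-fold lower, with 3.76, 2.37 and 3.11 CPM in wild type and 0.0270, 0.198 and 0.0626 CPM in the mutant. Without replicate 2 of the mutant it was 64.0-fold lower, and without iAs it was 2.38-fold lower. The treated mutant levels of ahsg2 lay near the floor of detection, so the size of its fold under iAs is uncertain.

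The exocrine pancreas differed in both conditions. Without iAs 21 of its 29 members were lower in the mutant and 1 higher (median -0.49), and under iAs 23 were lower and 1 higher (median -1.04). In 12 members the difference had widened, in 6 it was standing and in 5 it was iAs-dependent. The summed level of these enzymes was 13761 to 16606 CPM in untreated wild type, 9690 to 11013 CPM in the untreated mutant, 8984 to 10304 CPM in treated wild type and 3959 to 4946 CPM in the treated mutant. The elastase gene ela2l held 324, 353 and 263 CPM in wild type and 7.72, 9.47 and 7.57 CPM in the mutant without iAs, and 129, 187 and 161 and 1.16, 2.72 and 2.04 CPM with it. It was 38.0-fold lower without iAs and 81.0-fold lower with it (interaction -1.09, adjusted p = 0.00515). Both copies of the zymogen granule gene SYCN were widened as well. SYCN (ENSDARG00000103687) was 1.70-fold lower without and 6.70-fold lower with iAs, and SYCN (ENSDARG00000090899) 3.09-fold and 6.56-fold. In the endocrine pancreas and enteroendocrine list 4 of 21 members were higher and 7 lower (median -0.11), against 22.5% and 27.9% of all genes. The glucagon genes GCG and gcga were 3.75-fold and 2.28-fold higher, and pdx1, a transcription factor of pancreatic and duodenal cells, was 2.01-fold lower. The interactions of gcga and pdx1 were each lost in several alternatives, for instance without replicate 1 of the treated mutant (adjusted p = 0.116 and 0.108).

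Nerve and eye genes were broadly lower. In the neuron and glia list 43 of 57 members were lower in the treated mutant and 5 higher (median -0.49), against 6 lower and 2 higher without iAs. The higher members numbered 3 without replicate 2 or replicate 3 of the treated wild type. The lowest member was mbpa. Myelin basic protein mbpa held 47.7, 40.7 and 44.9 CPM in wild type and 4.99, 6.20 and 5.73 CPM in the mutant under iAs, 7.88-fold lower (log2 fold change -2.98, SE 0.08, adjusted p = 5.8e-14), and stood at 119 ± 1.41 and 131 ± 5.39 CPM without iAs (SD, n = 3). The neurofilament gene nefmb, of the axonal cytoskeleton, was 7.13-fold lower at 4.07, 4.47 and 4.04 CPM against 32.1, 29.3 and 28.5 CPM.

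Photoreceptor genes were lower in 49 of 59 members and higher in 4 (median -0.84). Part of this preceded iAs, since 24 were lower and 2 higher in the untreated mutant (median -0.26), and 14 differences had widened, 9 were standing and 19 were iAs-dependent. The summed level was 9550 to 9814 CPM in untreated wild type, 7659 to 7974 CPM in the untreated mutant, 6323 to 7223 CPM in treated wild type and 3565 to 3834 CPM in the treated mutant. guca1d, an activator of photoreceptor guanylate cyclase, held 5.59, 3.98 and 4.42 CPM in wild type and 0.405, 0.368 and 0.501 CPM in the mutant, 10.9-fold lower (log2 fold change -3.45, SE 0.20, adjusted p = 4.2e-10). It was iAs-dependent, with no call without iAs (adjusted p = 0.499) and the interaction called (adjusted p = 1.8e-08). The untreated groups overlapped at 6.52 ± 0.228 and 7.31 ± 0.653 CPM (SD, n = 3). The cone opsin kinase GRK7 (ENSDARG00000055534) was 2.05-fold lower without iAs and 6.99-fold lower with it, and the cone phosphodiesterase subunit pde6ha 1.52-fold and 3.45-fold. Lens genes were lower in 27 of 36 members and higher in 1 (median -0.45), where 0 were lower without iAs (adjusted p below 0.05) and 1 was higher. The crystallin crybb1l3 was 3.86-fold lower at 0.431, 0.481 and 0.407 CPM against 1.65, 1.90 and 1.58 CPM, and the crystallin crygm5 2.39-fold lower. Crystallin genes have near-copies. HSF4, a transcription factor of the lens, was 2.34-fold lower.

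DNA replication and mitosis genes lay on opposite sides in the 2 conditions. Without iAs 15 of 51 members were higher in the mutant and 0 lower (median 0.16). Under iAs 39 were lower and 0 higher (median -0.46), 12 of them turned and 23 iAs-dependent, and the interaction was downward in 38. The summed level was 1827 to 1940 CPM in untreated wild type, 1964 to 2028 CPM in the untreated mutant, 1799 to 1895 CPM in treated wild type and 1316 to 1408 CPM in the treated mutant. Only the treated mutant lay below the other groups. RRM2 (ENSDARG00000078069) and RRM1, the subunits of ribonucleotide reductase that makes deoxynucleotides, were 2.48-fold and 2.12-fold lower. RRM1 held 53.8, 53.1 and 58.5 CPM in the treated wild type and 25.0, 27.1 and 25.9 CPM in the treated mutant (log2 fold change -1.08, SE 0.06, adjusted p = 5.4e-10). The replicative polymerase gene POLE was 2.01-fold lower, at 8.36, 7.59 and 9.43 CPM against 17.4, 18.9 and 14.6 CPM.

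Ribosome biogenesis genes were lower in more members without iAs than with it. Without iAs 37 of 50 members were lower in the mutant and 0 higher (median -0.32). Under iAs 12 were lower and 6 higher (median -0.07), and the interaction was upward in 21 and downward in 0. The summed level stood at 3748 to 3809 CPM in untreated wild type, 2959 to 3179 CPM in the untreated mutant, 4170 to 4274 CPM in treated wild type and 4008 to 4133 CPM in the treated mutant. The counts under iAs depended on single libraries. The lower members numbered 7 and 6 without replicates 1 and 3 of the treated wild type and 6 without replicate 2 of the treated mutant. The higher ones numbered 1 without replicate 2 and 2 without replicate 1 of the treated wild type, and 3 without replicate 2 or 3 of the untreated wild type or replicate 1 or 3 of the treated mutant. NOP10, a protein of the particles that pseudouridylate ribosomal RNA, showed a standing difference, 2.04-fold lower without iAs and 2.21-fold lower with it. It held 17.9, 14.9 and 15 CPM in treated wild type and 6.74, 7.36 and 7.45 CPM in the treated mutant. noc4l, which acts in assembly of the small ribosomal subunit, was 1.57-fold and 1.46-fold lower. The growth regulator MYC (ENSDARG00000007241) was 1.62-fold higher under iAs, with no call without it (adjusted p = 0.150) or for the interaction (adjusted p = 0.166).

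Erythrocyte genes were higher in 8 of 26 members without iAs (median 0.25), and with it were lower in 17 and higher in 4 (median -0.44), with 5 turned. SLC4A1 (ENSDARG00000012881), the anion exchanger of the red cell membrane, held 39.1, 41.6 and 42.3 CPM in wild type and 54.0, 59.4 and 50.8 CPM in the mutant without iAs. Under iAs it held 84.9, 77.6 and 81.4 CPM in wild type and 13.2, 10.0 and 11.2 CPM in the mutant. It was 1.33-fold higher in the untreated mutant and 7.08-fold lower in the treated one, having risen 1.98-fold with iAs in wild type and fallen 4.77-fold in the mutant. The haem synthesis enzyme alas2 was 5.11-fold lower at 4.37, 4.76 and 3.95 CPM against 22.5, 20.5 and 24.0 CPM, and the erythroid transcription factor klf1 6.19-fold lower.

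**Figure D3:**
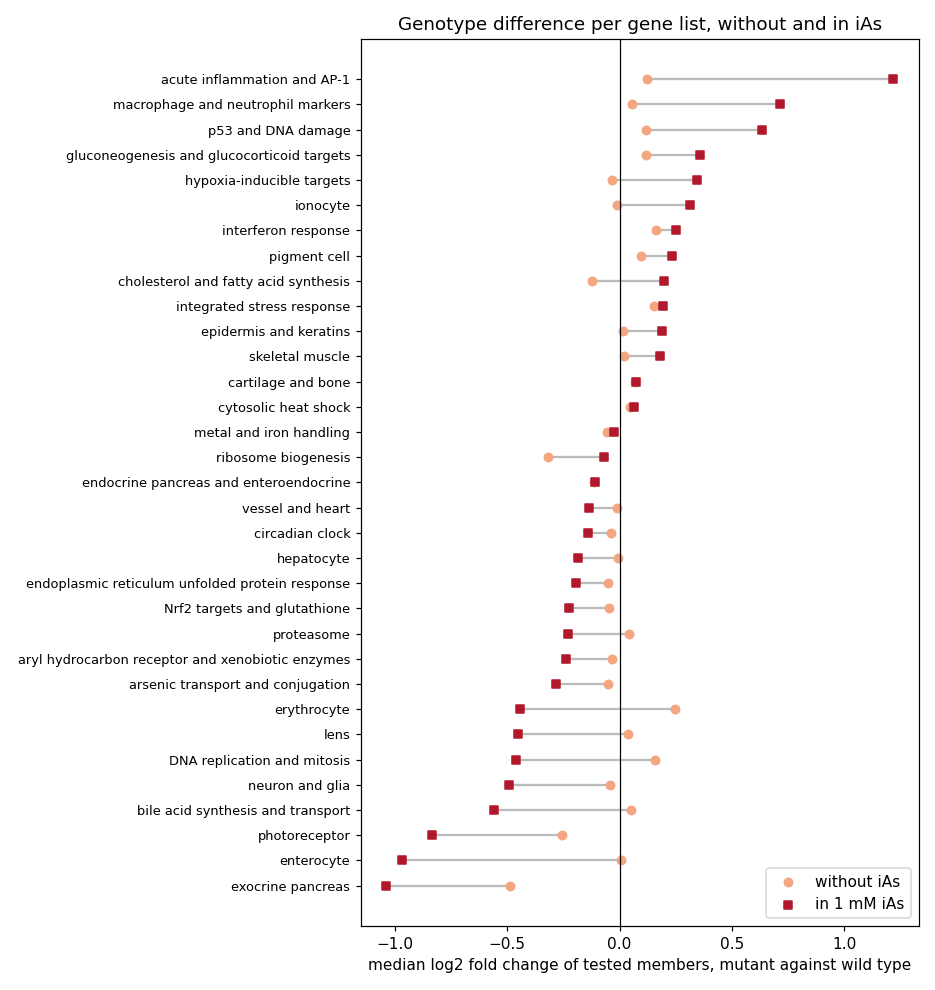
Median log2 fold change of the tested members of each of the 33 gene lists, mutant against wild type, without iAs (circles) and in 1 mM iAs (squares). The lists run from acute inflammation and AP-1 (1.22 in iAs) to exocrine pancreas (-1.04 in iAs). Several lists cross 0, among them DNA replication and mitosis (0.16 to -0.46), erythrocyte (0.25 to -0.44) and cholesterol and fatty acid synthesis (-0.12 to 0.20).

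Epidermis and keratin genes were higher in 21 of 45 members and lower in 9 (median 0.19). The cell adhesion gene epcam held 185, 175 and 237 CPM in wild type and 758, 512 and 587 CPM in the mutant under iAs, 3.11-fold higher (log2 fold change 1.64, SE 0.14, adjusted p = 3.0e-08). The tight junction gene cldnb was 2.86-fold higher, at 171, 98.3 and 117 CPM against 49.5, 41.9 and 43.9 CPM. The keratin krt15 was 2.88-fold lower, at 56.1, 46.9 and 52.0 CPM against 157, 137 and 152 CPM. Ionocytes, the skin cells that exchange ions with the water, had 23 of 45 genes higher and 12 lower (median 0.31). A pair of ammonia channel genes of 1 symbol went in opposite directions. RHCG (ENSDARG00000007080) was 3.16-fold lower at 29.2 ± 4.75 against 92.1 ± 13.9 CPM, and RHCG (ENSDARG00000100265) was 3.76-fold higher at 40.7 ± 6.30 against 10.8 ± 0.791 CPM (SD, n = 3). Skeletal muscle genes were higher in 27 of 59 and lower in 8 (median 0.18). The myosin binding protein gene mybpc2b was 2.78-fold higher, the skeletal actin ACTA1 (ENSDARG00000055618) 2.36-fold lower and the calcium buffer pvalb3 2.56-fold lower. Cartilage and bone genes were higher in 15 of 43 and lower in 8 (median 0.07), with 9 higher without replicate 3 of the treated wild type. The osteoblast transcription factor SP7 was 1.95-fold lower, the hypertrophic cartilage collagen COL10A1 (ENSDARG00000054753) 1.80-fold lower and ENTPD5, which acts in bone mineralization in zebrafish, 1.68-fold lower. These were named by size and all come from the 8 lower members, so they do not stand for the list. Its largest upward log2 difference was 0.62.

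Vessel and heart genes were higher in 9 of 39 members and lower in 12 (median -0.13), shares near those of all genes (22.5% and 27.9%). The higher members numbered 5 without replicate 1 of the treated mutant or replicate 3 of the treated wild type. The endothelial gene vwf turned, from 1.64-fold higher without iAs to 1.81-fold lower with it, at 4.39, 5.01 and 4.12 CPM in wild type and 2.43, 2.41 and 2.66 CPM in the mutant. The cardiac troponin gene tnnc1a was 3.08-fold lower. The natriuretic peptide gene nppb was 2.35-fold higher under iAs and was not called without replicate 1 of the treated mutant (1.4-fold, adjusted p = 0.295). Without iAs nppb was 2.204-fold higher in the mutant, where the groups did not overlap but no call was made (adjusted p = 0.1783). Its interaction was 0.09545 and was not called (adjusted p = 0.9413), so a dependence of this difference on iAs was not shown. Pigment cell genes were higher in 13 of 31 and lower in 9 (median 0.23). The melanosome protein pmela was 2.31-fold higher at 122, 129.7 and 139 CPM against 64.7, 50.9 and 53.4 CPM, gch2, of pteridine pigment synthesis, 2.31-fold higher and tspan36 2.19-fold higher. Clock genes were higher in 13 of 40 and lower in 16 (median -0.14). The clock repressors NFIL3 and nfil3-5 were 2.45-fold and 2.36-fold higher, and the nuclear receptor rorcb was 2.04-fold higher without iAs and 2.28-fold higher with it. These clock genes were named by size and all were higher, so they do not stand for the list. The summed level of the clock list was 3608 to 4062 CPM in the treated wild type and 3153 to 3358 CPM in the treated mutant.

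Genes of arsenic transport and conjugation, a list that holds as3mt itself, were lower in 16 of 32 members and higher in 9 (median -0.28). MAT2A (ENSDARG00000037121), which makes the methyl donor S-adenosylmethionine, held 32.4, 38.9 and 40.1 CPM in wild type and 11.1, 10.17 and 9.77 CPM in the mutant under iAs, 3.59-fold lower (log2 fold change -1.85, SE 0.09, adjusted p = 8.3e-11). It was already 2.62-fold lower without iAs, at 35.1, 28.7 and 30.6 CPM against 85.7, 81.9 and 80.0 CPM. The glucose transporter SLC2A1 (ENSDARG00000001437), whose mammalian protein also carries methylated arsenite, was 1.5-fold lower without and 4.12-fold lower with iAs. The aquaglyceroporin gene aqp10b, of a channel family that can pass arsenite, was 3.74-fold lower, at 0.405, 0.793 and 0.720 CPM against 2.23, 2.46 and 2.45 CPM. Metal and iron genes were higher in 6 of 26 and lower in 9, against 22.5% and 27.9% of all genes. Their median of -0.03 changed sign in 3 alternatives. The transferrin receptor tfr1a turned, from 1.54-fold higher without iAs to 2.45-fold lower with it. The iron hormone hamp was 2.12-fold lower without and 2.34-fold lower with iAs, and the zinc exporter SLC30A1 (ENSDARG00000053896) was 2.88-fold lower with iAs.

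Aryl hydrocarbon receptor and xenobiotic genes were lower in 17 of 39 and higher in 7 (median -0.24). The dioxin-inducible monooxygenase CYP1A1 held 31.7, 29.3 and 26.3 CPM in wild type and 14.4, 17.5 and 17.4 CPM in the mutant under iAs, 1.77-fold lower (log2 fold change -0.82, SE 0.08, adjusted p = 3.4e-07). Another target of that receptor, cyp1c2, went the other way, 5.38-fold higher at 13.1, 16.3 and 14.6 CPM against 2.92, 2.71 and 2.56 CPM, after 1.56-fold higher without iAs. The monooxygenases cyp3a65 and cyp2x9 were 2.62-fold and 2.60-fold lower. Cholesterol and fatty acid synthesis genes were higher in 14 of 40 and lower in 7 (median 0.20), with 9 higher without replicate 2 of the treated wild type. The sterol demethylase CYP51A1 was 2.06-fold higher and the fatty acid synthase FASN 1.73-fold lower. FASN showed a standing difference, already 1.36-fold lower without iAs. The squalene epoxidase SQLE (ENSDARG00000079946) was 1.77-fold higher (adjusted p = 0.0295) and was not called without replicate 2 (adjusted p = 0.136) or 3 (0.0551) of the treated wild type, without replicate 2 (0.0615) or 3 (0.0944) of the treated mutant, or by DESeq2 (0.0714).

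**Figure D4:**
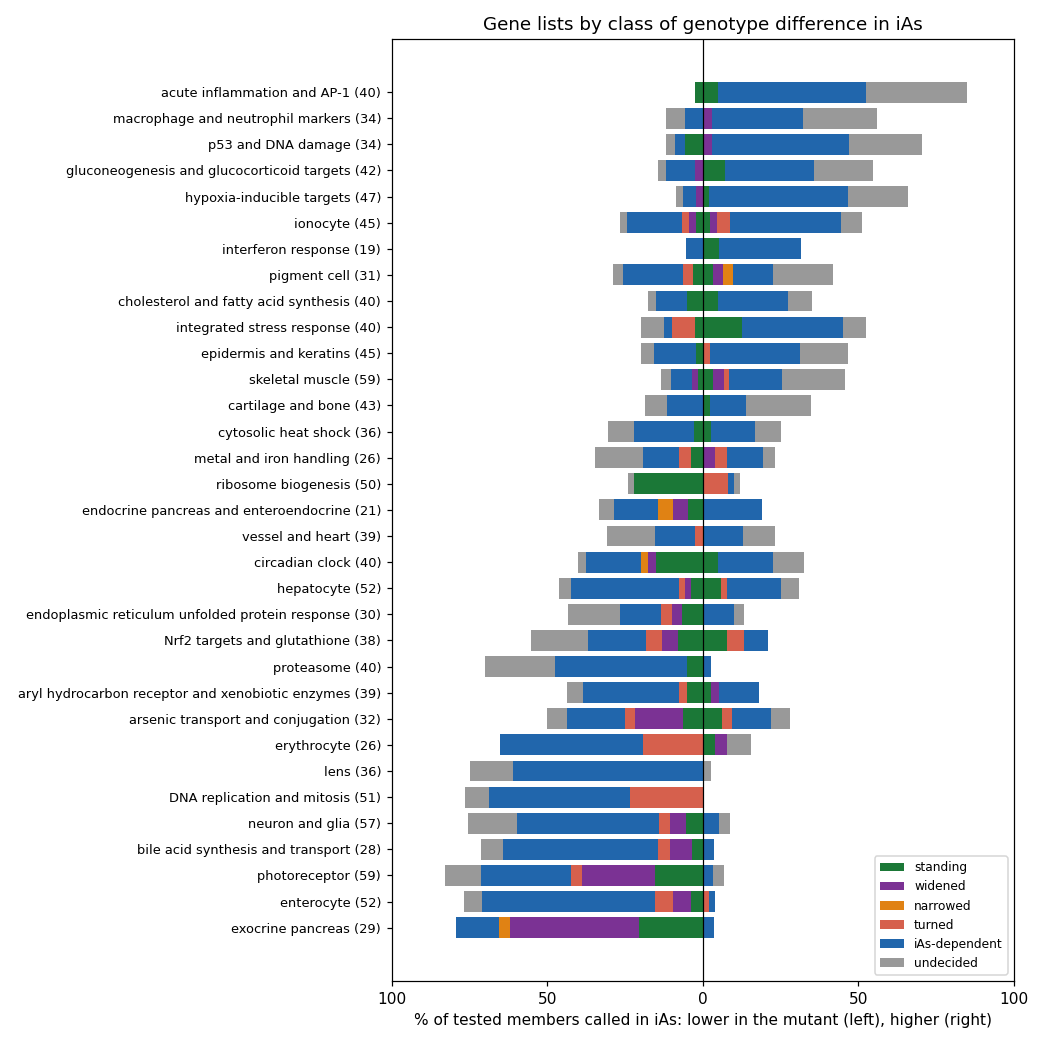
For each of the 33 gene lists, with the number of tested members in brackets, the percentage of members called lower in the treated mutant (left of 0) and higher (right of 0), coloured by class of genotype difference. Over all genes 27.9% were lower and 22.5% higher. The widened class is wide in exocrine pancreas (12 of 29 members) and photoreceptor (14 of 59), the turned class in DNA replication and mitosis (12 of 51), and the standing class in ribosome biogenesis (11 of 50).

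Over all genes tested, 23.6% were iAs-dependent, 17.5% could not be assigned, 6.02% were standing, 1.70% widened, 1.3% turned and 0.268% narrowed, the shares against which the plot of classes by list is to be read.

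Among standing differences, those called the same way in both conditions with no call for the interaction, the largest were near presence or absence of a transcript. GGACT (ENSDARG00000038248), of a gamma-glutamylamine cyclotransferase, had 0 counts over the 3 untreated wild-type libraries and 912 over the untreated mutant, at least 282-fold higher when 3 counts in the whole wild-type group are taken as the floor. Under iAs it had 1 count in wild type and 1328 in the mutant, a ratio of 1543 with an exact 95% counting interval from 276.5 to 61007. The table gives this symbol to several genes. CCDC134 (ENSDARG00000103285) was the reverse, with 1412 counts over the treated wild type and 3 over the treated mutant, 405-fold higher in wild type (exact 95% counting interval from 138 to 1966). Without iAs it stood at 9.83, 9.08 and 11.6 CPM in wild type and 0.0252, 0.0274 and 0.0565 CPM in the mutant. Reads of a near-identical copy could raise or lower either gene, since the handling of such reads is not given in the sources used here.

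The cardiac-type actin actc1c held 1.31, 0.851 and 1.08 CPM in untreated wild type and 22.7, 21.3 and 22.9 CPM in the untreated mutant. Under iAs wild type held 0.782, 0.610 and 0.915 CPM and the mutant 58.4, 1.33 and 45.5 CPM, with replicate 2 close to the wild-type levels. The mutant was 45.5-fold higher under iAs (log2 fold change 5.51, SE 0.82, adjusted p = 2.7e-05), or 30.2-fold without replicate 1 and 68.6-fold without replicate 2, and 20.7-fold higher without iAs. The protocadherin pcdh1g22, a neuronal adhesion gene, was 9.61-fold lower without and 12.2-fold lower with iAs. It held 14.3, 13.7 and 13 CPM in treated wild type and 0.917, 1.47 and 0.940 CPM in the treated mutant. The membrane gene ms4a17a.9 was 12.1-fold and 8.56-fold higher, and COX5B (ENSDARG00000068738), of mitochondrial cytochrome c oxidase, 3.16-fold and 4.81-fold. The muscle myosin gene myhc4 was 3.84-fold and 3.32-fold lower, and the centriole gene cep135 2.92-fold and 3.2-fold lower. The actin, myosin, ms4a17a and protocadherin genes belong to families with near-copies. The interaction became called for COX5B in 3 alternatives and for actc1c, ms4a17a.9 and pcdh1g22 in 1 each, so that the class of these genes was not firm.

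Widened genes already differed and differed more under iAs. The cadherin cdh29 held 11.7, 6.52 and 8.63 CPM in wild type and 1.94, 1.68 and 2.2 CPM in the mutant without iAs, and 13.4, 20.6 and 12.3 and 0.0539, 0.0283 and 0.219 CPM with it. It was 4.60-fold lower without and 156-fold lower with iAs (interaction -5.08, adjusted p = 2.6e-06), or 346-fold without replicate 3 of the treated mutant. The treated mutant levels of cdh29 lay near the floor of detection, so the sizes of its fold under iAs and of its interaction are uncertain. The complement component c7b, of the membrane attack complex, was 3.02-fold and 7.32-fold higher, at 5.44, 4.13 and 6.18 CPM in treated wild type and 46.8, 30.0 and 38.3 CPM in the treated mutant. The olfactomedin gene olmf4l1 was 2.22-fold and 12.7-fold higher, with 1.32, 1.29 and 1.17 CPM in treated wild type and 16.8, 13.6 and 17.5 CPM in the treated mutant. SERF2 (ENSDARG00000075881) was 3.76-fold and 8.78-fold higher and SCCPDH 2.48-fold and 6.88-fold lower. ms4a17a.5 was 2.63-fold and 6.39-fold higher, and its interaction (adjusted p = 0.0239) was lost in 5 alternatives that left out 1 library, with adjusted p from 0.0555 to 0.0708.

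**Figure D5:**
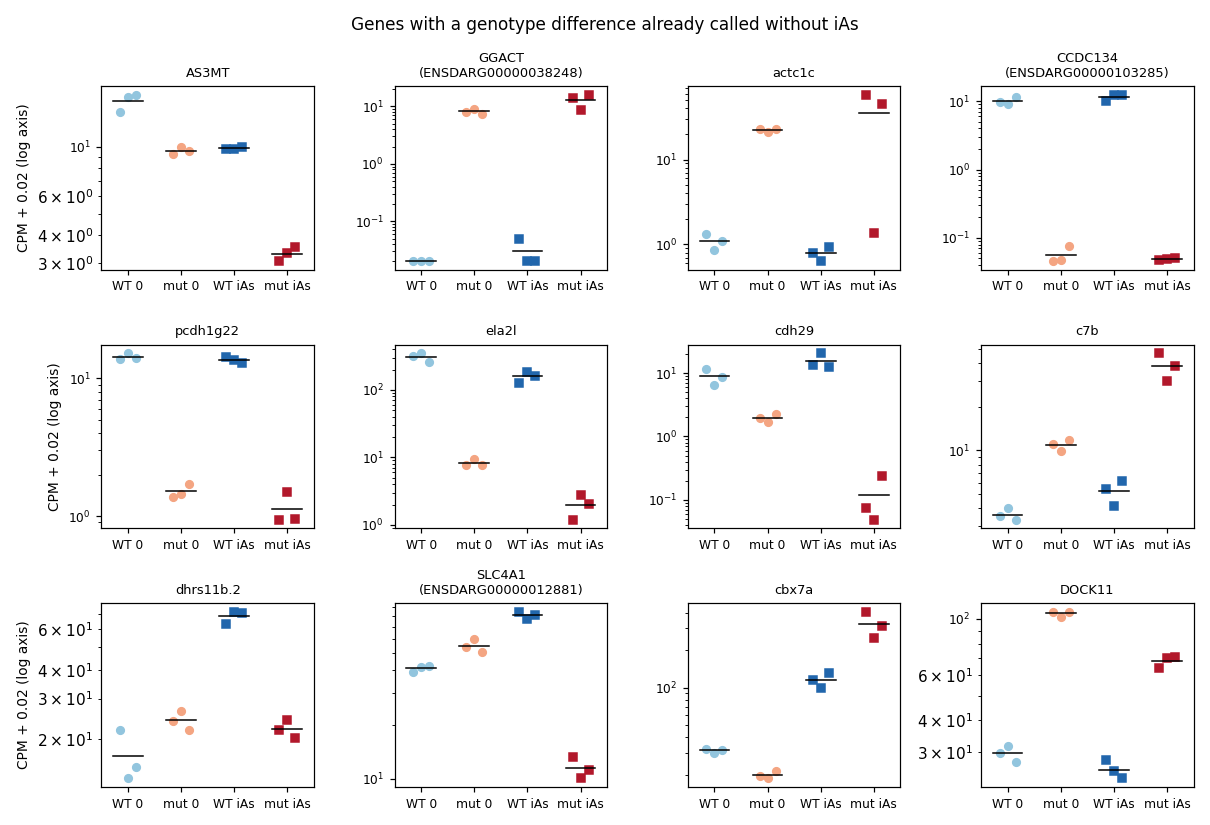
Levels of 12 genes whose genotype difference was already called without iAs, in CPM plus 0.02 on a log axis. Each marker is 1 library, circles without iAs and squares in 1 mM iAs, for wild type (WT) and mutant (mut), and bars are group means of 3. GGACT, CCDC134 and pcdh1g22 differ in the same direction in both conditions with no call for the interaction, cdh29 and c7b differ more in iAs, DOCK11 differs less, and dhrs11b.2, SLC4A1 and cbx7a change sides.

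Among narrowed genes, the guanine nucleotide exchange factor DOCK11 held 29.8, 31.8 and 27.4 CPM in wild type and 106, 102 and 107 CPM in the mutant without iAs, and 28, 25.2 and 23.6 and 64.3, 70.0 and 71.1 CPM with it. It was 3.54-fold higher without and 2.68-fold higher with iAs (interaction -0.40, adjusted p = 0.00614). The immune signalling gene themis2 went from 3.62-fold to 2.00-fold higher and the kinase PRKX from 2.47-fold to 1.51-fold higher. On the lower side, the imine deaminase RIDA went from 2.40-fold to 1.69-fold, tmem184bb.1 from 2.59-fold to 1.83-fold and the ovochymase ovch1 from 3.00-fold to 1.49-fold lower. The interactions of RIDA and tmem184bb.1 (adjusted p = 0.0382 and 0.0320) were lost in 7 and 8 alternatives. ovch1 was not called under iAs without replicate 2 of the treated mutant (adjusted p = 0.0867).

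Turned genes were on opposite sides of wild type in the 2 conditions. The polycomb gene cbx7a, of a complex that represses transcription, held 32.3, 30.1 and 31.8 CPM in wild type and 19.4, 18.7 and 21.3 CPM in the mutant without iAs, 1.58-fold lower. Under iAs it held 115, 99.2 and 130 CPM in wild type and 408, 249.5 and 312 CPM in the mutant, 2.82-fold higher, having risen with iAs by 16.3-fold in the mutant against 3.65-fold in wild type. SLC25A38 (ENSDARG00000059805), a mitochondrial glycine carrier of haem synthesis, went from 2.48-fold lower to 2.75-fold higher. Its rise with iAs was 22.0-fold in the mutant against 3.23-fold in wild type. The annexin anxa1b went from 2.06-fold lower to 2.66-fold higher. The dehydrogenase gene dhrs11b.2 went from 1.43-fold higher to 3.1-fold lower, as it rose 4.06-fold with iAs in wild type and did not change by the test in the mutant (adjusted p = 0.399).

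Some genotype differences were seen without iAs alone. Of the 964 genes called without iAs and not with it, 454 had the interaction called and 510 did not, so the loss was shown for the former. Without replicate 2 of the untreated mutant the 454 became 297. MTHFD1L, an enzyme of mitochondrial one-carbon metabolism, held 17, 10.9 and 18.4 CPM in wild type and 56.4, 58.3 and 44.7 CPM in the mutant without iAs, 3.47-fold higher (log2 fold change 1.79, SE 0.16, adjusted p = 6.0e-07). Under iAs the groups overlapped at 54.4, 61.6 and 69.2 and 67.3, 74.7 and 55.1 CPM (log2 fold change 0.09, SE 0.15, adjusted p = 0.632). Wild type rose 4.04-fold with iAs, and the mutant did not change by the test (1.24-fold, adjusted p = 0.0754). The phosphoethanolamine methyltransferase pmt was 2.69-fold higher without iAs and stood at 22.9 ± 3.30 and 24.2 ± 3.92 CPM in treated wild type and mutant (SD, n = 3). The monooxygenase cyp2aa9 was 2.77-fold higher without iAs. On the lower side were the transporter abcg2b, 2.3-fold lower without iAs, cyp2p7, 2.5-fold, and the pyruvate dehydrogenase kinase PDK2 (ENSDARG00000059054), 3.05-fold. None of these 6 genes was called under iAs (adjusted p from 0.291 to 0.803). The interaction of PDK2 (adjusted p = 0.0473) was lost in 11 alternatives.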

How the data were processed

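RNA was measured in 12 libraries, 3 in each of 4 groups (2 genotypes, with and without iAs), grouped by sample title. The deposited files hold raw read counts per Ensembl gene, which the authors made from poly-A RNA-seq reads. FastQC 0.11.5, Trimmomatic 0.36 and the GRCz10 build are named in the submitters' processing notes. Aligner, counter, strand setting and treatment of multiply matching reads: none of these is given in the sources used here.

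Counts were tested with edgeR 4.0.16 (R 4.3.3) by the quasi-likelihood test, with TMM scaling and Benjamini-Hochberg adjustment over the 23096 genes passing filterByExpr with a minimum count of 10. All 12 libraries entered 1 model of the 4 groups, and a call needed an adjusted p below 0.05. Fold changes are mutant against wild type unless stated, and CPM are per library with TMM scaling. Each SE is the absolute log2 fold change divided by the square root of the quasi-likelihood F statistic, so it is approximate. Gene lengths were not used, so levels are not compared between genes. The scripts were tested on simulated data. Intervals and floors on counts cover counting error only.

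The libraries held 28909467 to 43759270 counts and the common biological coefficient of variation was 9.00%. No replicates held identical counts. The labels do not say that replicates were separate clutches, so p-values measure the spread between these libraries, which may be technical.

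Symbols came from a name table covering 26269 of 32105 gene IDs and are in part human-style (HMOX1 for hmox1a, MT1X for mt2, CYP1A1 for cyp1a), and an ID is printed where a symbol has more than 1. The 33 gene lists matched 1231 of 1315 entries. Some synonyms were added for this matching after the names in the table were seen. The comparison, the members and the lists were chosen with earlier results of these data known. Named genes were a fixed set (as3mt, hmox1a, gclm, mt2, hsp70l, atf3, lepb, cyp1a, fabp10a) and the largest changes by class among called genes with at least 5 CPM in iAs and no overlap between groups. These were 8 up and 8 down for iAs-dependent, 4 for standing and for widened, 3 for narrowed, for turned and for genes called without iAs alone, plus up to 3 called members of each list with at least 1 CPM. A pair of genes that this rule named is not reported here.

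Alternatives were other scalings, DESeq2 1.42.0, other filters and thresholds, a replicate block, the 6 treated libraries alone and each library left out. No sequence is printed, since no genome was used.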

Additional observations from a re-analysis of the deposited data

Results flagged for a closer look

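Of the 140 genes named in the report, the interaction was called for 117 (edgeR's quasi-likelihood test, adjusted p below 0.05). In these genes the genotype difference in 1 mM iAs differed from that in untreated larvae. The interaction was above 0 for 56 of them and below 0 for 61, against 12.3% and 17.9% of all genes tested. Genes were named partly by the size of their change under iAs and partly from classes that require a called interaction. These counts therefore describe the named genes and are no test. Each value is the log2 difference of mutant against wild type with iAs minus that without it.

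In acute inflammation and AP-1 the interaction was 3.85 for FOSB and 3.40 for FOS. The macrophage and neutrophil list had 2.54 for MFAP4 (ENSDARG00000088745), 2.46 for cybb and 2.97 for the collagenase mmp13a. The heat shock list had 2.85 for hsp70l and 2.21 for dnajb1b, and the integrated stress response 2.37 for ATF3, 1.98 for ppp1r15a and 1.70 for CEBPB. Hypoxia targets had 2.5 for NDRG1 (ENSDARG00000010420), 2.5 for ANKRD37 and 2.27 for ADM (ENSDARG00000069027). Interferon genes stood at 0.95 for IRF7, and p53 targets at 1.43 for GADD45B (ENSDARG00000027744) and 1.31 for GADD45G (ENSDARG00000019417). Glucocorticoid-related genes had 2.08 for POMC and 1.34 for igfbp1b. The unfolded protein response was mixed, with 1.80 for ERO1A, 0.60 for HSPA5 and -0.48 for CALR. Nrf2 targets were mixed as well, with 1.28 for HMOX1, -0.91 for TKT and -1.17 for gsta.1. Proteasome assembly genes had 0.54 for PSMG1 and -0.45 for PSMG2.

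Over the whole lists, the interaction was upward for 2 and downward for 36 of 52 enterocyte genes, for 11 and 20 of 52 hepatocyte genes and for 5 and 4 of 21 endocrine genes. Enterocyte genes had -1.31 for chia.3, -3.05 for apoa4b.3 and -3.99 for cpo. Bile acid genes stood at -1.52 for FABP6, -3.21 for nr5a5 and -3.69 for ABCB11, and hepatocyte genes at -2.15 for GC, -2.71 for fabp10a and -3.69 for ahsg2. The exocrine pancreas had -1.09 for SYCN (ENSDARG00000090899), -1.09 for ela2l and -1.98 for SYCN (ENSDARG00000103687). Endocrine genes had 1.43 for GCG, 0.80 for gcga and -0.74 for pdx1.

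Nerve and eye genes were lower in each case named. Neuron and glia genes had -2.92 for nefmb and -3.12 for mbpa. Photoreceptor genes had -1.18 for pde6ha, -1.77 for GRK7 (ENSDARG00000055534) and -3.61 for guca1d, and lens genes -1.30 for crygm5, -1.34 for HSF4 and -1.83 for crybb1l3. Dividing and red blood cell genes had -1.05 for POLE, -1.15 for RRM1 and -1.23 for RRM2 (ENSDARG00000078069) in DNA replication and -2.39 for klf1, -2.56 for alas2 and -3.24 for SLC4A1 (ENSDARG00000012881) in the erythrocyte list.

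The skin, muscle and skeleton lists went both ways. Epidermis genes had 1.38 for epcam, 1.32 for cldnb and -1.50 for krt15, and ionocyte genes 1.78 for RHCG (ENSDARG00000100265) and -1.51 for RHCG (ENSDARG00000007080). Pigment genes stood at 1.61 for gch2, 1.04 for tspan36 and 1.00 for pmela, although over the whole list the interaction was upward for 5 members and downward for 9. Skeletal muscle had 1.1 for mybpc2b, -0.78 for ACTA1 (ENSDARG00000055618) and -1.58 for pvalb3, and cartilage and bone -0.70 for SP7, -0.78 for ENTPD5 and -0.81 for COL10A1 (ENSDARG00000054753). Over the whole cartilage and bone list the interaction was upward for 5 members and downward for 6. In vessel and heart the values were -1.09 for tnnc1a and -1.56 for vwf, and in the clock list 1.27 for nfil3-5 and 0.86 for NFIL3. Over the whole vessel and heart list the interaction was upward for 5 members and downward for 8. For the clock list these counts were 10 and 11.

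Arsenic handling genes had -0.46 for MAT2A (ENSDARG00000037121), -1.46 for SLC2A1 (ENSDARG00000001437) and -1.90 for aqp10b. Metal and iron genes had -1.51 for SLC30A1 (ENSDARG00000053896) and -1.92 for tfr1a, although over the whole list the interaction was upward for 6 members and downward for 6. Xenobiotic enzymes stood at 1.78 for cyp1c2, -1.18 for cyp3a65 and -1.40 for cyp2x9, and sterol synthesis genes at 1.39 for SQLE (ENSDARG00000079946) and 1.25 for CYP51A1.

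Of genes named by size over all genes or as part of the fixed set, iAs-dependent ones had 3.93 for CARTPT (ENSDARG00000035852), 3.85 for vtg1, 3.2 for plekhs1.1 and 2.68 for FOSL1. Smaller rises were 2.66 for JDP2 (ENSDARG00000020133), 2.29 for fbxl3l and 1.23 for MT1X, and falls were -0.72 for CYP1A1, -2.66 for malrd1, -2.73 for zanl and -2.95 for apoa4b.2. Widened genes stood at 2.51 for olmf4l1, 1.28 for ms4a17a.5, 1.28 for c7b and 1.22 for SERF2 (ENSDARG00000075881) on the upper side and -0.83 for AS3MT, -1.47 for SCCPDH and -5.08 for cdh29 on the lower side. Narrowed genes had 1.01 for ovch1, 0.51 for RIDA and 0.50 for tmem184bb.1 where the mutant was lower and -0.40 for DOCK11, -0.70 for PRKX and -0.85 for themis2 where it was higher. Turned genes had 2.77 for SLC25A38 (ENSDARG00000059805), 2.45 for anxa1b, 2.16 for cbx7a and -2.15 for dhrs11b.2. Genes called without iAs alone had 1.29 for abcg2b, 1.2 for PDK2 (ENSDARG00000059054) and 1.16 for cyp2p7 where the untreated mutant was lower, and -1.35 for pmt, -1.39 for cyp2aa9 and -1.71 for MTHFD1L where it was higher.

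The interaction was lost in at least 1 alternative for hsp70l, vtg1, gcga, pdx1, PDK2, RIDA, tmem184bb.1, ms4a17a.5, PSMG2, SP7, tnnc1a and chia.3.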

How the results depend on the processing

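Calls depended on the spread among 3 libraries a group, and differences near the threshold moved between classes. With an adjusted p below 0.01 the class counts were 821 standing, 146 widened, 20 narrowed, 106 turned and 3577 iAs-dependent, with 215 genes called without iAs alone. With an adjusted p below 0.1 there were 662 widened, 114 narrowed, 533 turned and 689 called without iAs alone. Adding a change of 2-fold or more left 1227 genes higher and 1578 lower under iAs. With each library left out in turn, narrowed genes ranged from 39 to 61, turned genes from 189 to 332, widened genes from 221 to 468, genes called without iAs alone from 297 to 468 and genes higher without iAs from 1022 to 1719. Of the counts over all genes under each alternative, 268 stayed within 1.5 times the value in the report and 22 did not, and for counts of list members these were 1226 and 28. Of the values of named genes, 4851 kept direction and call, 74 lost the call, 9 gained it and 3 changed sign with no call in either setting. The last were interactions, which over the fits without 1 library ran from -0.25 to 0.0045 for cep135, from -1.61 to 0.64 for GGACT (ENSDARG00000038248) and from -0.077 to 0.54 for myhc4, and the cause was not tested. Of called genes, 44.7% were higher in the mutant with TMM, 38.1% with library size alone, 47.1% with DESeq2's size factors and 50.2% with the 6 treated libraries alone. The median over all genes was -0.04, -0.10 and -0.03 with these scalings. Ribosome biogenesis members higher under iAs numbered 1 with library size alone. Replicate numbers were not used as pairs. Over 15061 genes the correlation of deviations for 18 same-numbered pairs ran from -0.10 to 0.16 and exceeded 0.1 in 3. Between untreated and treated libraries it was -0.02, 0.105 and 0.16 in wild type and -0.06, 0.003 and -0.10 in the mutant. Deviations from means of 3 libraries are too coarse to settle whether the numbers mark pairs. With a replicate block 5117 genes were higher and 6335 lower under iAs, 1448 and 1497 without it, and the interaction was called upward for 2741 and downward for 4058. Differences of low-count genes, such as lepb without iAs, were limited by depth.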
